A study of Mus musculus with 6 samples.

Results

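The insulin-like growth factor (IGF) system was read here through 10 genes: the ligand IGF2, the binding proteins IGFBP2 to IGFBP7, the receptors IGF1R and IGF2R, and the adaptor IRS1. They were chosen by gene symbol from the 20323 gene rows of the deposited table, and each of the 10 symbols had 1 row. The study sequenced RNA of RFB cells, which the labels call a fibroblast line of the kidney, in 6 libraries. The treatment was TGF-β, a cytokine that drives fibroblasts toward a matrix-producing state, in 3 libraries, and TGF-β+CXCL10 in the other 3, CXCL10 being a chemokine whose receptor is CXCR3. By their treatment label all 6 libraries come from TGF-β-treated cells, although those labelled TGF-β alone are titled NC. By these labels no library without TGF-β was compared, so the values below are differences between treated cultures and not responses to TGF-β itself. Titles of the libraries with CXCL10 carry a volume of 5 µl, while its concentration, the treatment times and the number of separate cultures or clones are not given in the labels. A knockdown of SUV39H1 is named in the design text of the series but in no sample label, and the groups here rest on the sample labels. The labels name the organism as mouse, whereas all rows of the table are human Ensembl genes, so levels refer to human gene models.

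IGF ligands act by binding IGF1R, a receptor tyrosine kinase that phosphorylates adaptors such as IRS1 and thereby feeds the PI3K-AKT and ERK cascades. IGF2R, which is also the cation-independent mannose 6-phosphate receptor, takes IGF2 to lysosomes without signalling as a kinase. Secreted IGF binding proteins hold the ligands away from IGF1R or deliver them to it, and proteases such as PAPPA release ligand by cleaving IGFBP4 and IGFBP5. In fibroblasts several binding proteins, IGFBP3 and IGFBP5 among them, are known as products of TGF-β-treated or fibrotic cultures.

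Library totals ranged from 12838106 to 15587409 counts. Replicate 1 of both groups stood apart from replicates 2 and 3. On the first principal component, which held 48.4% of the variance of log2 CPM (read counts scaled to a common library size), TGF-β replicate 1 scored 5.54, where TGF-β replicates 2 and 3 scored -28.3 and -29.5 and the CXCL10 libraries 9.67 to 32.8. Of 10 fibroblast markers 10 passed the filter on low counts, with a summed level of 52970 to 60440 CPM with TGF-β and 50610 to 54930 CPM with CXCL10. COL1A1 held most of this sum, at 29940 to 38460 CPM. VIM and THY1 were higher, and LUM and DCN lower, in every CXCL10 library than in every TGF-β library. For the other fibroblast markers the groups overlapped. Of 9 tubule markers 2 passed (PAX8 at 5.92 to 8.69 CPM and CDH1 at 0.21 to 3.68 CPM) and 5 were at 0 in all libraries, among them LRP2, UMOD, SLC34A1 and AQP2, for a summed level of 8.03 to 10.3 CPM with TGF-β and 6.61 to 9.67 CPM with CXCL10. Of 6 leukocyte markers 2 passed (CD68 at 36.3 to 44.3 CPM and CD14 at 0.71 to 1.65 CPM), and CD3E and MS4A1 were at 0. Of 5 endothelial markers 1 passed, with a summed level of 2.56 to 3.17 CPM over all libraries. Among the 11970 genes tested, edgeR's quasi-likelihood test called 0 between the treatments (0% of genes) at an adjusted p under 0.05, although 2449 had an unadjusted p under 0.05. With the replicate number added as a block, a pairing that rests on the counts and not on the labels, the same test called 2124 genes, or 17.7% of those tested. Of these, 1162 were higher with CXCL10 (9.71%) and 962 lower (8.04%).

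With CXCL10 the ligand IGF2 and the binding proteins IGFBP4 and IGFBP5 rose, and IGFBP3 and the clearance receptor IGF2R fell, in the fit with the replicate block. IGFBP5 rose most, by 2.31-fold, followed by IGF2 at 1.86-fold and IGFBP4 at 1.56-fold, while IGFBP3 was 1.36-fold and IGF2R 1.12-fold lower. IGFBP6, IGFBP7, IGF1R and IRS1 did not pass, and IGFBP2 was too low to test. Thus 3 of the 9 tested genes were higher and 2 lower in that fit, beside 9.71% and 8.04% of all tested genes. Without the block 0 of 9 passed, although 4 had an unadjusted p under 0.05 (IGF2, IGFBP3, IGFBP4 and IGFBP5, each with an adjusted p of 0.161). The median log2 change of the 9 genes was 0.14, beside -0.01 over all tested genes. The groups did not overlap in CPM for 7 of the 9, 5 higher and 2 lower, beside 22.3% of all tested genes (11.1% higher and 11.2% lower). All p-values measure the spread between these libraries, which may be technical.

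**Figure D1:**
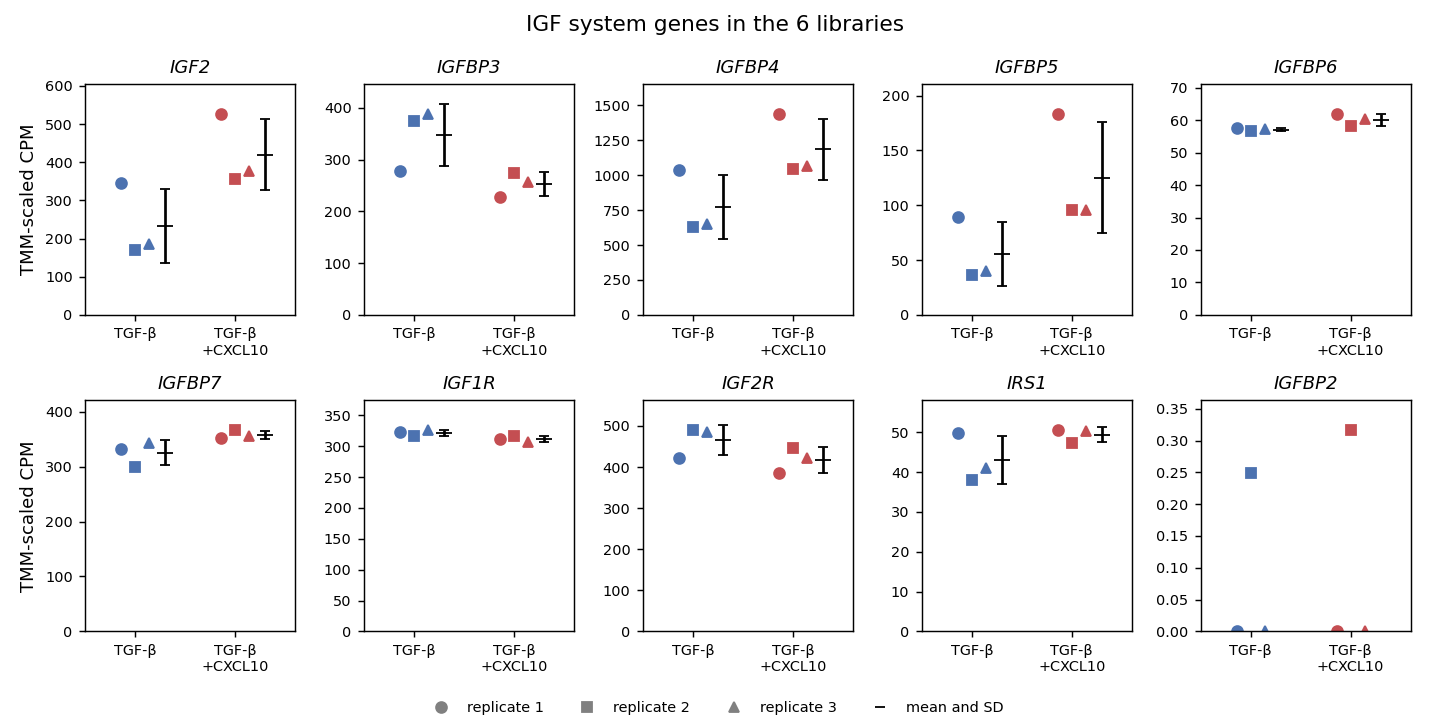
Level of each IGF system gene in each library, in CPM scaled by trimmed mean of M values (TMM) on a linear axis from 0, with TGF-β libraries in blue, TGF-β+CXCL10 libraries in red, the marker shape giving the replicate number and the black bar the mean and SD of 3 libraries (no bar for IGFBP2, which had counts in 1 library per group). For IGF2, IGFBP4 and IGFBP5 the blue circle of TGF-β replicate 1 sits just under the red square and triangle of CXCL10 replicates 2 and 3.

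IGF2 (ENSG00000167244), the only IGF ligand with an appreciable level, stood at 345, 170.1 and 185 CPM in TGF-β replicates 1, 2 and 3 and at 527, 356 and 376 CPM in CXCL10 replicates 1, 2 and 3. Every CXCL10 library lay above every TGF-β library, but TGF-β replicate 1 was within 11.1 CPM of the lowest of them. The means were 233 ± 96.8 CPM and 419.6 ± 93.4 CPM (SD, n = 3 per group), and the log2 change was 0.90 (SE 0.07, adjusted p = 9.85e-06) with the block and 0.85 (SE 0.25) without it. The 3 same-numbered pairs differed by 0.61, 1.06 and 1.03 on the log2 scale. The rows of the readthrough gene INS-IGF2, which overlaps IGF2, held no counts, and since strand-specific counting is not given in the sources used here, reads from the opposite strand cannot be told apart.

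IGFBP5 (ENSG00000115461), a matrix-associated binding protein, followed the same order of libraries. It measured 89.4, 36.7 and 40.4 CPM in the TGF-β replicates and 183, 95.3 and 96.0 CPM in the CXCL10 replicates. CXCL10 replicate 1 was far above its group, and TGF-β replicate 1 was nearer to CXCL10 replicates 2 and 3 than to its own group. Its log2 change was 1.21 (SE 0.07, adjusted p = 8.48e-07) with the block and 1.17 (SE 0.35) without it, from 55.5 ± 29.4 CPM to 125 ± 50.7 CPM. The pairs differed by 1.04, 1.37 and 1.25.

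IGFBP4 (ENSG00000141753), a soluble inhibitor of IGF action and the main substrate of PAPPA, was the most abundant gene of the system. Its CPM values were 1036, 628 and 649 with TGF-β and 1441, 1047 and 1069.6 with CXCL10. The groups were parted only by the narrow gap between TGF-β replicate 1 and CXCL10 replicate 2. The log2 change was 0.64 (SE 0.05, adjusted p = 9.85e-06) with the block and 0.62 (SE 0.19) without it, from 771 ± 229.7 CPM to 1186 ± 221 CPM.

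IGFBP3 (ENSG00000146674), the main carrier of IGFs in plasma and a secreted product of fibroblasts, moved the other way. It stood at 278, 375 and 389 CPM in the TGF-β replicates and at 229, 275 and 256 CPM in the CXCL10 replicates. TGF-β replicate 1 was again the library nearest to the other group, 2.83 CPM above CXCL10 replicate 2. The log2 change was -0.44 (SE 0.06, adjusted p = 0.000192) with the block and -0.45 (SE 0.12) without it, from 347 ± 60.3 CPM to 253 ± 23.4 CPM. In the authors' deposited table IGFBP3 was the 1 gene of the 10 with an adjusted p under 0.05, at 0.0285 with a log2 ratio of -0.50, beside 1.33% of the rows with a count. For IGF2, IGFBP4 and IGFBP5 the authors' deposited table gave adjusted p values of 0.302, 0.315 and 0.271.

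The remaining binding proteins changed little. IGFBP7 (ENSG00000163453), which binds IGFs only weakly, measured 333, 299.7 and 344 CPM and then 352, 366 and 356 CPM. Its groups did not overlap, and its log2 difference of 0.14 (SE 0.05) did not pass with the block (adjusted p = 0.0968). IGFBP6 (ENSG00000167779), which prefers IGF2 over IGF1, had 57.6, 56.6 and 57.3 CPM with TGF-β and 62.0, 58.3 and 60.4 CPM with CXCL10. The groups did not overlap by a margin of 0.71 CPM, with a log2 difference of 0.08 (SE 0.06, adjusted p = 0.475). IGFBP2 (ENSG00000115457) had 4 counts in replicate 2 of each group and 0 in the other 4 libraries, where 3 counts, the limit that a count of 0 allows, equal 0.211 to 0.225 scaled CPM (counting error only).

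**Figure D2:**
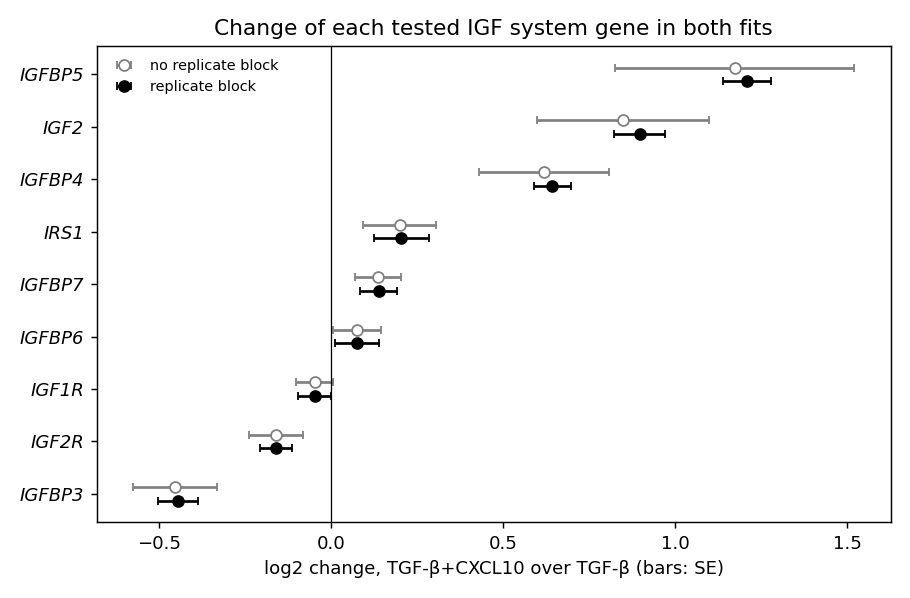
Log2 change with CXCL10 for the 9 tested genes, from the edgeR fit without the replicate block (open grey) and with it (filled black). Each point has its standard error, derived from the test's F statistic. The points of the 2 fits nearly coincide, and the bars of IGF2, IGFBP3, IGFBP4 and IGFBP5 shorten most with the block, from 0.25 to 0.07 for IGF2.

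The signalling receptor IGF1R (ENSG00000140443) was nearly level over the libraries. It stood at 323, 317 and 326 CPM with TGF-β and at 311, 316 and 307 CPM with CXCL10. The groups just failed to overlap, and the log2 difference was -0.05 (SE 0.05, adjusted p = 0.540) with the block. IGF2R (ENSG00000197081) measured 423, 489 and 486 CPM and then 385, 445 and 422 CPM, so that TGF-β replicate 1 lay below CXCL10 replicate 2 and the groups overlapped. Within each same-numbered pair the CXCL10 library was the lower one, by 0.14, 0.14 and 0.21 on the log2 scale. The log2 change was -0.16 (SE 0.05, adjusted p = 0.0271) with the block and -0.16 (SE 0.08, adjusted p = 0.279) without it. The call of IGF2R ended when both libraries of replicate 2 (adjusted p = 0.146) or of replicate 3 (0.311) were left out. It also ended in the blocked DESeq2 test (0.0535) and in the blocked limma-trend test on log2(FPKM + 1) (0.0539), where FPKM is a level scaled to transcript length and library size and the log2 difference was -0.27.

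IRS1 (ENSG00000169047), the adaptor that links IGF1R to PI3K, had 49.8, 38.0 and 41.1 CPM with TGF-β and 50.5, 47.2 and 50.4 CPM with CXCL10. TGF-β replicate 1 lay within the range of the CXCL10 libraries. The log2 difference of 0.20 (SE 0.08) did not pass with the block (adjusted p = 0.0970).

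Per unit of transcript length, IGFBP4, IGFBP7, IGFBP3 and IGFBP6 stood above both receptors, and IGFBP5 and IGFBP2 below them. In mean FPKM of the TGF-β libraries the order was IGFBP4 (354 ± 98.8), IGFBP7 (232 ± 14.5), IGFBP3 (135 ± 25.5), IGF2 (66.6 ± 24.2), IGFBP6 (64.4 ± 3.44), IGF2R (41.9 ± 3.62), IGF1R (34.4 ± 1.84), IGFBP5 (8.97 ± 4.59), IRS1 (4.46 ± 0.55) and IGFBP2 (SD, n = 3). The ranges of IGF2 and IGFBP6 overlapped, and those of all other neighbours in this order did not. In the CXCL10 libraries IGF2 (124 ± 30.5 FPKM) stood above IGFBP3 (95.7 ± 9.25 FPKM), with overlapping ranges, and IGF2R (34.6 ± 1.89 FPKM) and IGF1R (33.4 ± 2.58 FPKM) overlapped as well. The ratio of IGF1R to IGF2R in FPKM was 0.961, 0.768 and 0.751 in the TGF-β replicates and 1.02, 0.989 and 0.885 in the CXCL10 replicates. IGF2 amounted to 10.7%, 6.85% and 7.15% of the summed FPKM of IGFBP2 to IGFBP7 with TGF-β and to 14.96%, 11.5% and 12.05% with CXCL10. For IGF1R, IGF2R and IGF2 the transcript length implied by FPKM varied between libraries, so both ratios also hold differences in that length.

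The summed level of the 6 binding proteins was 881, 732 and 772 FPKM with TGF-β and 1065, 907 and 904 FPKM with CXCL10, so the groups did not overlap. The means of 795 ± 77.3 and 959 ± 91.7 FPKM differed by 164 FPKM (exact two-sided permutation test, p = 0.10, the smallest that 3 against 3 libraries can give; adjusted p = 0.233 over 7 such tests of the sum and of each gene's share). IGFBP4 accounted for this rise, being 175.6 FPKM higher, while IGFBP3 was 39.6 FPKM lower. Without IGFBP4 the sum of the other 5 was 441 ± 29.4 FPKM with TGF-β and 429 ± 8.72 FPKM with CXCL10. The share of IGFBP3 in the sum was 12.03%, 20.2% and 19.7% with TGF-β and 8.08%, 11.5% and 10.7% with CXCL10, groups that did not overlap (exact p = 0.10, adjusted p = 0.233). The share of IGFBP4 was 53.1%, 40.1% and 38.9% and then 60.3%, 51.6% and 52.8%, with TGF-β replicate 1 above CXCL10 replicates 2 and 3 (exact p = 0.30, adjusted p = 0.350). In bulk RNA a change in the make-up of the culture and a change in RNA per cell cannot be told apart.

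**Figure D3:**
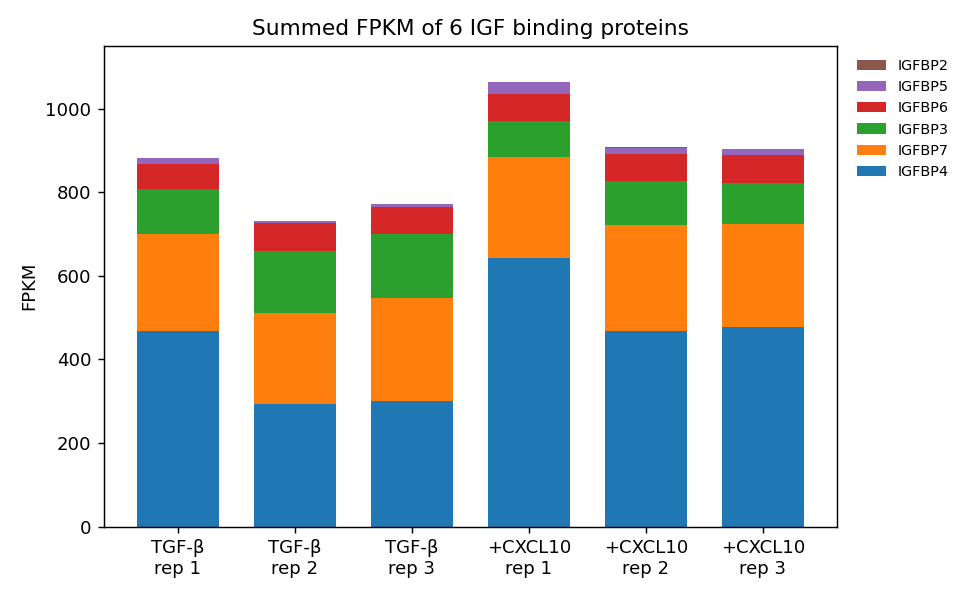
Stacked FPKM of the 6 IGF binding proteins in each of the 6 libraries, on a linear axis from 0. The IGFBP4 segment (blue) is 468 FPKM in TGF-β replicate 1, close to the 468 and 478 FPKM of CXCL10 replicates 2 and 3, and 294 and 299.9 FPKM in TGF-β replicates 2 and 3, while the IGFBP7 segment (orange) stays between 218 and 254 FPKM.

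In each of the 5 genes called with the block, replicate 1 of both groups differed from the other replicates of its own group in the direction of the change with CXCL10. Within the TGF-β group, replicate 1 exceeded the mean of replicates 2 and 3 by 1.21 for IGFBP5, 0.96 for IGF2 and 0.70 for IGFBP4 in log2 CPM, and lay below it for IGFBP3 (-0.46) and IGF2R (-0.20). These differences between libraries of the same treatment were about as large as the changes with CXCL10. Within the CXCL10 group the same comparison gave 0.94 for IGFBP5, 0.53 for IGF2, 0.44 for IGFBP4, -0.22 for IGFBP3 and -0.17 for IGF2R. For the uncalled IRS1 the values were 0.33 and 0.05, for IGF1R 0.01 and 0.00, for IGFBP6 0.02 and 0.06 and for IGFBP7 0.05 and -0.04. In the fit without the block, dropping TGF-β replicate 1 led edgeR to call 2348 of 12145 tested genes, among them 6 of the 9. IGFBP5 was then 1.70 higher (adjusted p = 0.00145), IGF2 1.24 (0.000523), IGFBP4 0.89 (0.000786) and IRS1 0.32 (0.0276) on the log2 scale, and IGFBP3 was at -0.59 (0.000749) and IGF2R at -0.22 (0.0310). For these 6 genes TGF-β replicate 1 was the library of its group nearest to the CXCL10 group, so larger changes without it follow from its level. Dropping any of the other 5 libraries left 0 of the 9 called. Some myofibroblast markers also differed in replicate 1 and with CXCL10. Of 4 on the list 3 passed the filter, with a summed level of 2806 to 3055 CPM with TGF-β and 2283 to 2859 CPM with CXCL10. ACTA2, the smooth muscle actin, had 975, 1232 and 1247 CPM in the TGF-β replicates and 657.5, 981 and 956 CPM in the CXCL10 replicates, and CNN1, the contractile protein calponin, 107, 148 and 157 CPM and then 75.8, 132 and 122 CPM. For both genes replicate 1 was the lowest of its group, and the log2 changes were -0.43 (adjusted p = 8.60e-05) and -0.34 (0.00238) with the block. TAGLN, the other marker that passed, did not follow ACTA2 and CNN1, at 1724, 1614 and 1650 CPM and then 1550, 1746 and 1699 CPM. Its level in TGF-β replicate 1 exceeded that in TGF-β replicates 2 and 3, and CXCL10 replicates 2 and 3 lay above those 2 as well. Of 4 pericyte markers 3 passed, with a summed level of 407 to 517 CPM and 337 to 443 CPM. Their part in the IGF changes, and what sets replicate 1 apart, were not tested.

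**Figure D4:**
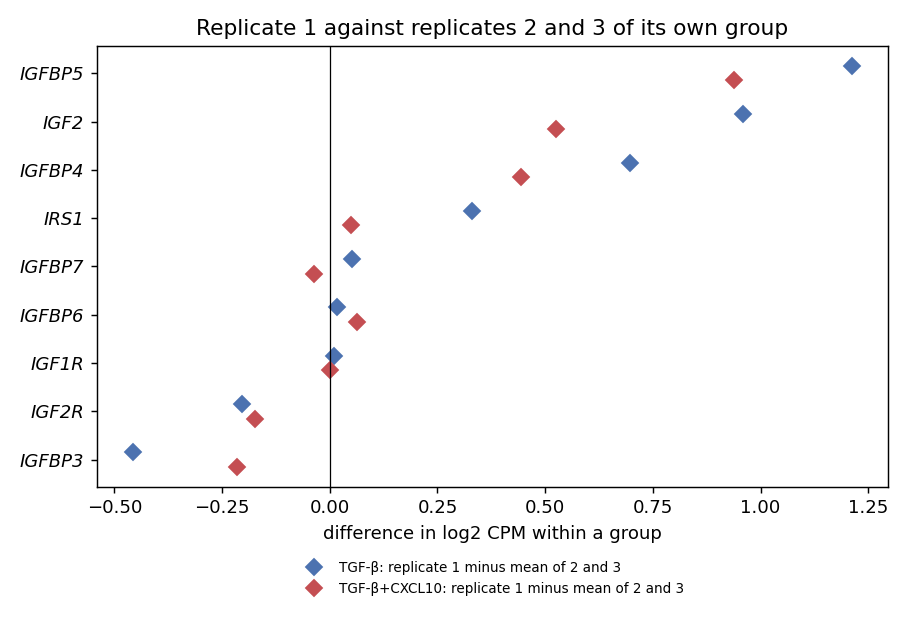
Difference in log2 CPM between replicate 1 and the mean of replicates 2 and 3 of the same group, for each of the 9 tested genes (blue, TGF-β; red, TGF-β+CXCL10). IGFBP5, IGF2 and IGFBP4 lie to the right in both groups, at 0.44 or more, IGFBP3 and IGF2R lie to the left in both, and IGF1R lies at 0.01 and 0.00.

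Across the 6 libraries IGF2, IGFBP4 and IGFBP5 had Pearson correlations of 0.994 to 0.998 with each other in log2 CPM, and IGFBP3 had -0.98 to -0.99 with each of them. These are descriptions over 6 points that share the treatment difference and the shift of replicate 1. Among 9696 other genes with at least 5 CPM, the most alike to IGFBP5 over the 6 libraries were CTNNA1, NRP1, NEK7 and IL11, with r between 0.9988 and 0.9997. Of these, IL11, a cytokine of TGF-β-treated fibroblasts, had 56.6, 20.6 and 21.7 CPM with TGF-β and 119, 61.0 and 57.4 CPM with CXCL10. The order of groups and of replicate 1 was that of IGFBP5, which follows from the choice by correlation. The most alike to IGFBP3 were PDE5A, MFAP4, PTK7 and GTF2I, with r of 0.997 to 0.999. PDE5A, a cGMP phosphodiesterase, had 62.5, 115 and 125 CPM and then 43.7, 64.3 and 56.7 CPM. GTF2I has near-identical copies in the genome, so its counts are uncertain.

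Of 70 other genes of the IGF pathway, 69 had a row and 58 were tested. In the fit with the block 5 rose and 8 fell, beside 9.71% and 8.04% of all tested genes, and the list's median log2 change was -0.02 beside -0.01 over all tested genes. Without the block 0 of 58 passed (smallest adjusted p = 0.161), with 10 at an unadjusted p under 0.05. Changes and adjusted p-values of single pathway genes below are from the fit with the block.

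Other ligands and carriers were barely detected or undetected at this depth. IGF1 had 13, 0 and 0 counts in the TGF-β replicates and 2, 0 and 5 counts in the CXCL10 replicates, so that replicate 1 carried all counts of its TGF-β group. INS, IGFBPL1 and the insulin receptor-related gene INSRR had 0 counts in all 6 libraries, and IGFBP1 and IGFALS, the acid-labile subunit of the circulating complex, had at most 2 counts in any library. Of 3 IGF2 mRNA-binding proteins 0 passed, with log2 differences of 0.10 for IGF2BP2, 0.09 for IGF2BP1 and -0.07 for IGF2BP3.

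Of 6 tested genes for binding protein proteases and their inhibitors 2 rose and 1 fell in the fit with the block. Over all tested genes 9.71% rose and 8.04% fell. PAPPA, the metalloprotease that cleaves IGFBP4, had 468, 339.6 and 359.95 CPM with TGF-β and 572, 479 and 495 CPM with CXCL10. The groups did not overlap, and TGF-β replicate 1 was again nearest to the CXCL10 libraries. Its log2 change was 0.41 (SE 0.05, adjusted p = 0.000120). ADAM9, a membrane protease, rose by 0.21 (SE 0.05, adjusted p = 0.00729), and HTRA1, a secreted serine protease that can cleave IGFBP5, changed by -0.17 (SE 0.05, adjusted p = 0.0328). STC2, an inhibitor of PAPPA, was at -0.04 (SE 0.05, adjusted p = 0.666). Of the cell surface partners of binding proteins, LRP1, an endocytic receptor that also binds IGFBP3, changed by -0.13 (SE 0.04, adjusted p = 0.0257), and TMEM219, another IGFBP3 receptor, was at -0.08 (adjusted p = 0.565).

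Among the other receptors and the sorting machinery of IGF2R few genes passed with the block, as over all tested genes, of which 17.7% passed. INSR, the insulin receptor, was low, at 4.32 CPM with TGF-β and 4.21 CPM with CXCL10, and M6PR, the small mannose 6-phosphate receptor, was at 88.9 CPM in both. Of 6 genes that tag or sort mannose 6-phosphate cargo 1 fell: GGA2, an adaptor that carries IGF2R out of the Golgi, had a log2 change of -0.39 (SE 0.10, adjusted p = 0.0165), while GNPTG was at -0.13 and GGA1 at 0.17.

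Downstream of IGF1R most genes did not pass with the block, as over all tested genes, of which 17.7% passed. Of 8 adaptors SHC1 rose by 0.16 (SE 0.05, adjusted p = 0.0290), and SOS1 and GRB2 were at -0.15 and 0.11. Of 9 PI3K-AKT genes AKT1 rose by 0.16 (SE 0.05, adjusted p = 0.0465), from 128, 116 and 124 CPM to 135, 135 and 142 CPM, and PIK3CB and PIK3R1 were at 0.19 and -0.14. Of 12 negative regulators 2 fell and 0 rose, beside 8.04% and 9.71% of all tested genes. TRIB3, a pseudokinase that binds AKT, changed by -0.62 (SE 0.05, adjusted p = 9.87e-06), from 171.4, 258 and 265 CPM to 104, 181 and 171.4 CPM, with TGF-β replicate 1 below CXCL10 replicate 2. GRB10, an adaptor that inhibits the insulin and IGF1 receptors, changed by -0.47 (SE 0.06, adjusted p = 0.000126), and PTPN1, a phosphatase of these receptors, was at 0.11.

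Of 7 genes of receptor ubiquitination and trafficking 1 rose and 1 fell with the block, beside 9.71% and 8.04% of all tested genes. MDM2, a ubiquitin ligase that can act on IGF1R, changed by -0.33 (SE 0.06, adjusted p = 0.00297). NEDD4, another such ligase, rose by 0.22 (SE 0.05, adjusted p = 0.00645), while GIGYF2 was at 0.15. FOXO transcription factors, which AKT keeps out of the nucleus, were lower in 2 of 3 cases, beside 8.04% of all tested genes. FOXO3 changed by -0.26 (SE 0.07, adjusted p = 0.0212) and FOXO4 by -0.45 (SE 0.13, adjusted p = 0.0318), and FOXO1 was at -0.31 (adjusted p = 0.0908). FOXO4 had 11.4, 13.7 and 14.3 CPM and then 9.35, 9.64 and 9.67 CPM, groups that did not overlap.

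**Figure D5:**
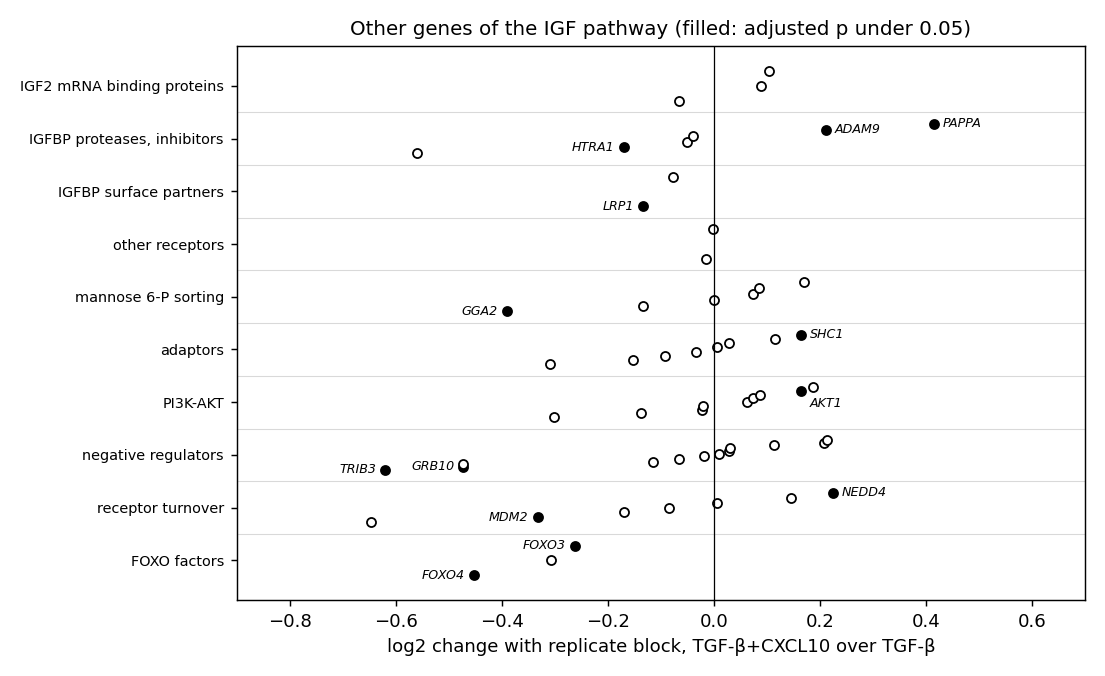
Log2 change with CXCL10 in the fit with the replicate block for 58 other genes of the IGF pathway, 1 point per gene in rows by role, filled and named where the edgeR adjusted p was under 0.05. The 13 filled points lie between -0.62 (TRIB3) and 0.41 (PAPPA), 5 to the right of 0 and 8 to the left.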

How the data were processed

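Per the labels' protocols, RNeasy RNA was made into libraries with the SMARTer mRNA-seq chemistry. GRCm38 and mm10 are named per the submitters' processing notes, yet 0 of 20323 rows carry a mouse identifier. Aligner, counter and strand setting: not given in the sources used here. The deposited table holds raw counts and FPKM per library, the authors' mean FPKM, the log2 ratio of these, and a p-value with its adjusted p, whose test is not stated. The quasi-likelihood test of edgeR 4.0.16 (R 4.3.3) was run on the counts (TMM, filterByExpr with a minimum count of 10 and total of 15, Benjamini-Hochberg over 11970 genes, threshold 0.05). CPM values are TMM-scaled, and log2 CPM uses a prior count of 2. The SE of an edgeR change was derived as the absolute log2 change divided by the square root of the test's F statistic. limma 3.58.1 and DESeq2 1.42.0 served as alternatives. The scripts were tested on simulated data.

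The principal fit had treatment only and called 0 genes. The fit with the replicate number as a block is given beside it for IGF2, IGFBP3, IGFBP4, IGFBP5 and IGF2R. For all other single genes the changes and adjusted p-values printed above are from the fit with the block unless stated otherwise. Across genes, the deviations from the group mean correlated between libraries of the same number at 0.330, 0.121 and 0.163. Each was over the limit of 0.1, so the numbers were taken to pair the libraries. TGF-β replicate 2 with CXCL10 replicate 3 gave 0.080, and TGF-β replicate 3 with CXCL10 replicate 2 gave 0.082. As deviations within a group cancel, a shift of replicate 1 shared by both groups also makes such values positive. The check therefore hardly bears on the numbering of replicates 2 and 3. This pairing comes from the same counts and rests mainly on replicate 1. Libraries of a group differed beyond sampling noise (chi-square per degree of freedom of 2.79 to 17.4). The genes and lists were chosen with earlier results of these data known. Genes named are the 10, up to 3 per pathway subgroup by p with the block, and the 4 most correlated with IGFBP3 and IGFBP5. STC2 and the ligands, carriers and INSRR that were too low to test were named outside this rule after their values were seen. H19 was not analysed here. A marker list is not reported here.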

Additional observations from a re-analysis of the deposited data

How the results depend on the processing

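Without a block, 0 genes, 0 of the 9 tested IGF genes and 0 of the pathway list were called by edgeR with median-of-ratios scaling, with library totals alone, with no filter on low counts, with at least 5 CPM and by limma-voom or limma-trend with either pseudocount. With the replicate block the calls numbered 2124 over all genes, 5 of the 9 and 13 of the pathway list, with the block and library totals alone (added after seeing the data) 2236, 5 and 11, by blocked DESeq2 1141, 4 and 6, by blocked limma-trend 689, 4 and 3, and by DESeq2 without a block 314, 1 (IGFBP3, adjusted p = 0.0201) and 1. Leaving out 1 library without the block gave 0 to 2348 calls over all genes, 0 to 6 of the 9 and 0 to 13 of the pathway list, all of them without TGF-β replicate 1. Leaving out both libraries of a number with the block gave 904 (without replicate 3), 1241 (without 2) and 2846 (without 1) over all genes, 4 to 7 of the 9 and 5 to 15 of the pathway list. The blocked split over all genes turned from 1162 higher and 962 lower to 877 and 1359 with library totals alone, which moved the median change by -0.04 (log2). Over 21 alternatives, 0 of 189 values for the 9 genes changed sign. These refits reuse the same libraries or a part of them, so they are not independent. IGF2, IGFBP3, IGFBP4 and IGFBP5 passed in all 7 blocked settings, and IGF2R in 3 of 7. The summed binding protein level stayed 111 to 207 FPKM higher with any 1 library left out and turned to -12.0 FPKM (exact p = 0.70) without IGFBP4; paired by replicate number with exact sign flips it gave p = 0.25, the smallest possible. Depth limits the genes that were too low to test, among them IGFBP2, IGF1, IGFBP1, IGFALS, IGFBPL1, INS and INSRR.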

Other observations

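The deposited FPKM values imply a transcript length for each gene, as counts divided by FPKM and by the library total. For IGFBP4 this was 2205 bases in all 6 libraries, and for IGFBP3, IGFBP5, IGFBP7 and IRS1 the highest and lowest library differed by at most 1.006-fold. For IGFBP6 it was 948 and 947 bases in replicate 1 of the TGF-β and CXCL10 groups and 878 to 881 bases in the other 4 libraries. For IGF1R it ranged from 8655 to 9902 bases, for IGF2R from 11002 to 12079 bases and for IGF2 from 3252 to 3631 bases. For these 4 genes a change in FPKM therefore holds a change in the length used as well as in counts. For IGF2R the log2 difference without a block was -0.16 by TMM-scaled counts, -0.21 by counts with library totals alone and -0.27 by log2(FPKM + 1). FPKM is not TMM-scaled, so the first of these values differs from the last in scaling as well as in length. What made the lengths vary was not tested.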
